A study of Mus musculus with 8 samples.

Results

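The genes described here are 34 genes of DNA damage signaling and repair, followed across mouse embryonic stem cells (mESCs) in which the splicing factor gene *Eftud2* was knocked down (KD). They were taken from a list of gene symbols by a rule that uses no measured value, although the list was chosen with earlier results of these data known. They were matched by Ensembl identifier to the 55385 genes of the deposited count table. All 34 were found and all 34 passed the expression filter that left 17445 genes for testing. They comprise 6 genes of checkpoint signaling, 5 of break sensing and chromatin signaling, 5 of end resection and DNA unwinding, 8 of homologous recombination (BRCA genes and partners), 5 of the Fanconi anemia pathway, 4 of end joining and 1 of mismatch repair.

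The cells were R1 mESCs, an established line labelled as wild type and grown in N2B27 medium with kinase inhibitors and leukemia inhibitory factor. In every group the cells were infected with lentivirus on 2 days and then kept under puromycin for 3 days, so the controls carry a hairpin vector too. The groups were 3 libraries with shRNA1, which targets the 3′ UTR of *Eftud2*, 3 libraries with shRNA2, which targets its coding sequence, and 2 libraries with the non-targeting hairpin nt-shRNA. The labels call the libraries biological replicates but do not say how the cultures were kept apart, and the RNA is from infected pools of 1 line, so fewer cells of a kind and less RNA per cell cannot be told apart. *Eftud2* encodes a GTPase of the U5 small nuclear ribonucleoprotein, a core part of the spliceosome.

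DNA breaks are read by a kinase cascade. ATM responds to double-strand breaks and ATR, with its partner ATRIP, to single-stranded DNA, and they phosphorylate the effector kinases CHK1 and CHK2. Breaks are then either joined end to end by the Ku, DNA-PK and LIG4 machinery or resected and repaired from the sister chromatid by homologous recombination, in which BRCA1, PALB2 and BRCA2 act. The Fanconi anemia proteins act on crosslinks between strands, and mismatch repair corrects replication errors. mESCs cycle fast, spend little time in G1 and are known for high levels of homologous recombination genes.

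Total counts ran from 19569525 to 29871048 per library, with the nt-shRNA libraries the deepest at 28548237 and 29871048. At this depth 3 counts correspond to 0.100 to 0.153 CPM (counts relative to the library total), whereas the raw counts of the 34 genes ran from 226 for *Fancc* to 29132 for *Parp1* over all libraries. *Eftud2* itself was at 262 and 256 CPM in the nt-shRNA libraries, 232, 229 and 225 CPM with shRNA1, and 198, 202 and 235 CPM with shRNA2. Its log2 fold change was -0.18 ± 0.0678 (standard error, adjusted p = 0.0514) with shRNA1 and -0.29 ± 0.0678 (standard error, adjusted p = 0.00122) with shRNA2, from edgeR's quasi-likelihood test with Benjamini-Hochberg adjustment over all 17445 genes, which gives every adjusted p below. That is 11.7% and 18.3% lower, and the shRNA1 difference missed the threshold, so KD is used here as the name of the labelled groups. The shRNA2 against shRNA1 difference was -0.11 (adjusted p = 0.164), and it passed the threshold without shRNA2 replicate 3, at -0.19 (adjusted p = 0.0127). The 9 pluripotency markers fixed for a check of the cell type summed to 7082 to 7750 CPM in every library, with 4 of 9 higher and 2 lower with shRNA1 and 6 higher and 2 lower with shRNA2 (log2 fold changes of -0.96 to 1.31 with shRNA2). Markers of 2-cell-like cells summed to 10.7 and 12.7 CPM in the nt-shRNA libraries, 48.8 to 69.0 CPM with shRNA1 and 41.9 to 50.8 CPM with shRNA2, with 7 of 7 tested markers higher in each KD. Primed markers summed to 98.2 and 109.7 CPM in the nt-shRNA libraries, 112.1 to 123.8 CPM with shRNA1 and 134.0 to 144.5 CPM with shRNA2, but with shRNA2 1 of the 5 tested was higher (log2 fold change 1.25), 1 was lower and the median was -0.12. Fibroblast markers summed to 21.2 and 23.1 CPM in the nt-shRNA libraries, 22.3 to 25.03 CPM with shRNA1 and 15.4 to 19.2 CPM with shRNA2, with 1 of 4 tested higher with shRNA1 and 1 higher and 1 lower with shRNA2 (median log2 fold change 0.33). Neural markers summed to 67.6 to 83.3 CPM over all libraries, with 3 of 6 higher and 1 lower with shRNA1 and 2 higher (up to 5.71 in log2 fold change) and 1 lower with shRNA2. Mesoderm and endoderm markers summed to 36.6 to 46.7 CPM, with 1 of 7 lower with shRNA1 and 1 higher and 1 lower with shRNA2. No marker was at 0 in all libraries. The part of these shifts in the results below was not tested.

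Each hairpin was first compared with nt-shRNA, which asks which repair genes differ in cells given an shRNA to *Eftud2*. With shRNA1, 5 of the 34 genes were higher and 8 lower, and 21 did not pass the threshold of an adjusted p under 0.05. Of all genes tested, 30.9% were called with shRNA1, 13.8% higher and 17.1% lower. With shRNA2, 8 of the 34 genes were higher and 17 lower, and 9 did not pass, against 55.9% of all genes called, 27.2% higher and 28.7% lower. The called shares of the 34 genes were 38.2% with shRNA1 and 73.5% with shRNA2. All libraries of a KD group lay above both controls for 6 of the 34 genes and below both for 15 with shRNA1 (26.6% and 30.2% of all genes), and for 10 and 19 with shRNA2 (35.4% and 36.0%). These comparisons share the nt-shRNA libraries and are therefore not independent of each other.

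The changes were mostly small. The median log2 fold change of the 34 genes was -0.083 with shRNA1, beside -0.0069 over all genes tested, and -0.15 with shRNA2, beside 0.0040. The SD between the 3 libraries' own medians was 0.0559 with shRNA1 and 0.0734 with shRNA2. Leaving out 1 library at a time gave medians of -0.10 (without shRNA1 replicate 1) to -0.028 (without shRNA1 replicate 3) with shRNA1 and of -0.21 to -0.14 with shRNA2. *Brca2* with shRNA2 was the only one of the 34 genes called at more than 2-fold, a size reached by 14.4% of all genes in that comparison and by 4.97% with shRNA1. *Fancm* and *Mdc1* were also called beyond 1.5-fold with shRNA2, against 28.0% of all genes. With shRNA1 only *Brca2* was called beyond 1.5-fold, against 10.9% of all genes. With no scaling beyond the library total, the median of all genes was 0.11 with shRNA1 and 0.093 with shRNA2. Under that scaling the median of the 34 genes was 0.031 with shRNA1 and -0.064 with shRNA2, none of the 8 lower calls with shRNA1 was left, and 9 of the 17 lower calls with shRNA2 were. Relative to the median of all genes, the 34 genes were at -0.076 with shRNA1 and -0.16 with shRNA2 under both scalings.

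The counts also changed when single libraries were left out. Without an nt-shRNA library only 1 control remains, so a call can be lost with its log2 fold change unchanged. *Blm* with shRNA2 was at -0.24 both in the main fit and without nt-shRNA replicate 1, where its call was lost. With shRNA1, the number of lower genes was 5 without shRNA1 replicate 1, 4 without shRNA1 replicate 2, 3 without nt-shRNA replicate 1 and 1 without nt-shRNA replicate 2, and the number of higher genes was 3 without shRNA1 replicate 1 or without either nt-shRNA library. Over all genes the lower calls with shRNA1 went from 2981 to 2287, 2078, 1700 and 2077 in these 4 fits, and the higher calls from 2407 to 1799 without shRNA1 replicate 1, 1248 without nt-shRNA replicate 1 and 1531 without nt-shRNA replicate 2. With shRNA2, 8 genes were lower without nt-shRNA replicate 2 and 4 were higher without nt-shRNA replicate 1. Over all genes the lower calls with shRNA2 went from 5010 to 4171 without nt-shRNA replicate 2, and the higher calls from 4748 to 3610 without nt-shRNA replicate 1. The genes whose shRNA2 call held in all 19 alternatives tried were *Brca2*, *Fancm*, *Atm* and *Lig4*, which were higher, and *Mdc1*, *Xrcc5*, *Xrcc6*, *Bard1*, *Prkdc* and *Topbp1*, which were lower. With shRNA1 those were *Brca2*, *Fancm* and *Atm*. Offsets for GC content ended the shRNA1 calls of *Fancc*, *Lig4*, *Parp1*, *Rbbp8* and *Xrcc3* and the shRNA2 calls of *Fanca*, *Fancc*, *Parp1*, *Xrcc2* and *Xrcc3*. They brought *Brca1*, *Chek1*, *Fanci* and *Topbp1* past the threshold with shRNA1 and *Atrip*, *Chek1*, *Rad50* and *Wrn* with shRNA2, while the calls over all genes went from 2407 to 2658 higher and from 2981 to 3051 lower with shRNA1. DESeq2 ended the shRNA1 calls of *Fancc* and *Rbbp8* and the shRNA2 calls of *Rnf8* and *Xrcc2*, and no filter on low counts ended those of *Fancc*, *Rnf8* and *Xrcc2*. Length offsets ended the shRNA1 calls of *Rbbp8* and *Xrcc3* and the shRNA2 call of *Rnf8*, and brought *Brca1*, *Topbp1* and *Trp53bp1* past the threshold with shRNA1.

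**Figure D1:**
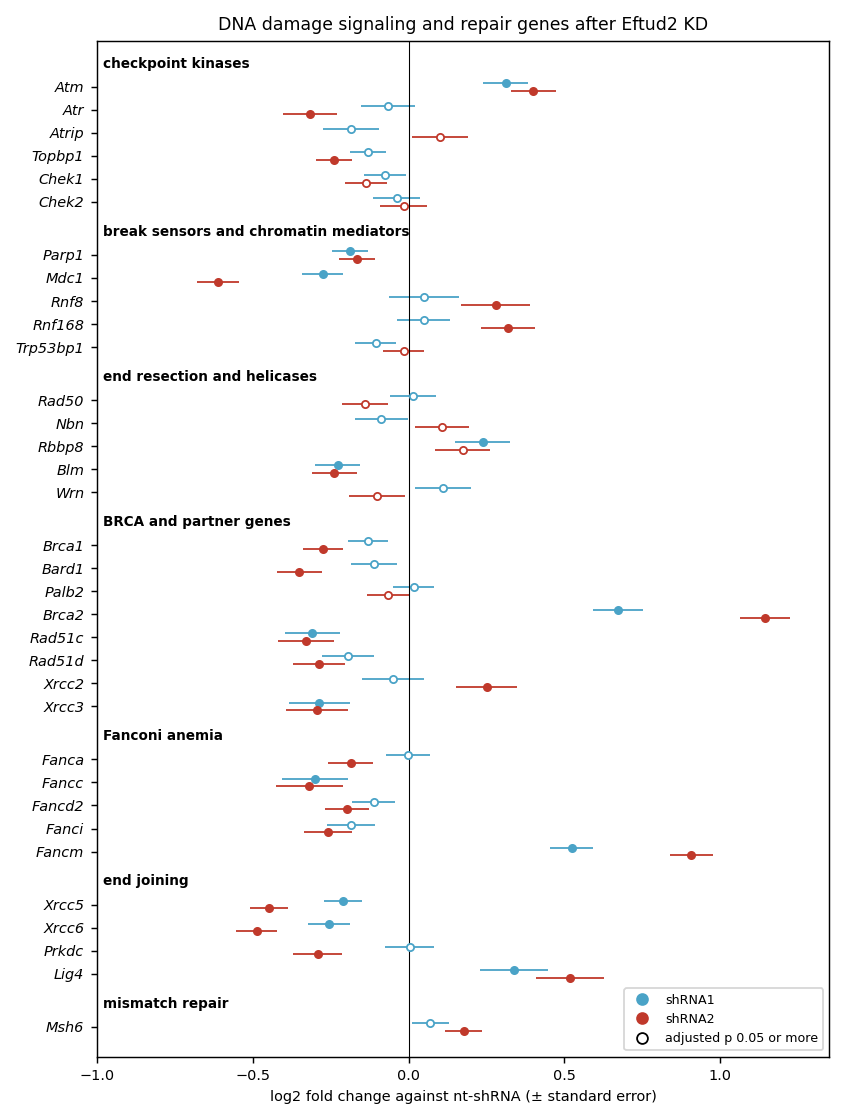
Log2 fold change of each of the 34 genes against nt-shRNA (x axis) with its standard error, for shRNA1 (blue) and shRNA2 (red), grouped by role. Filled points passed an adjusted p of 0.05. *Brca2* and *Fancm* lie farthest to the right, at 1.14 and 0.91 with shRNA2, and *Mdc1* farthest to the left, at -0.61.

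Levels differed far more between the genes than between the groups. Per kilobase of merged exon length in the nt-shRNA libraries (n = 2), *Parp1* was highest at 194 CPM per kb ± 3.70 (SD) and *Msh6* next at 157 ± 2.25. The Ku subunit gene *Xrcc5* was at 70.7 ± 3.84, and the median of the 34 genes was 9.32. At the low end were *Rbbp8* at 3.15 ± 0.0955, *Fancc* at 1.63 ± 0.0745 and *Rnf8* at 1.00 ± 0.0288 CPM per kb. Among neighbours in this order, *Rnf168* (9.34 ± 1.23) and *Fancm* (9.31 ± 0.186) did not differ beyond their spread, nor did *Palb2* (6.65 ± 0.0384) and *Atm* (6.64 ± 0.0125). Exons of every isoform are merged in that length, which understates the level of genes with long rare exons.

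Among the checkpoint genes, *Atm* was the one that rose. *Atm* (chr9:53439149-53536740, minus strand of GRCm38) encodes the kinase that responds to double-strand breaks. Its level was 68.8 and 68.6 CPM in the nt-shRNA libraries, 90.2, 87.7 and 77.9 CPM with shRNA1, and 92.5, 85.4 and 94.1 CPM with shRNA2. Every KD library was above both controls, and the log2 fold change was 0.31 ± 0.0721 (standard error, adjusted p = 0.00288) with shRNA1 and 0.40 ± 0.0722 (standard error, adjusted p = 0.00011) with shRNA2, that is 24.1% and 32% higher. The hairpins differed by 0.09 (adjusted p = 0.291), with a 95% interval of -0.044 to 0.22.

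*Atr* (chr9:95857597-95951781, plus strand), the kinase of the single-stranded DNA branch, went the other way with shRNA2. It was at 95 and 104 CPM in the nt-shRNA libraries, 99.9, 96.7 and 89.6 CPM with shRNA1, and 81.7, 68.9 and 89.9 CPM with shRNA2. The shRNA1 libraries overlapped the controls and the log2 fold change there was -0.065 (adjusted p = 0.601), whereas all 3 shRNA2 libraries were below both controls, at -0.32 ± 0.0863 (standard error, adjusted p = 0.00435). That call was lost without nt-shRNA replicate 2 (-0.25, adjusted p = 0.0731). *Topbp1* (chr9:103305215-103350428, plus strand), whose product activates ATR, was at 335 and 338 CPM in the nt-shRNA libraries, 312, 309 and 301 CPM with shRNA1, and 284, 275 and 296 CPM with shRNA2. The groups did not overlap in either comparison, with a log2 fold change of -0.13 (adjusted p = 0.0949) for shRNA1 and -0.24 ± 0.0576 (standard error, adjusted p = 0.00163) for shRNA2. *Atrip*, the ATR partner, was at -0.18 (adjusted p = 0.129) and 0.10 (adjusted p = 0.357) on that scale, and differed between the hairpins by 0.28 (adjusted p = 0.0108), a call lost without shRNA1 replicate 2 (0.25, adjusted p = 0.054) and without shRNA2 replicate 2 (0.21, adjusted p = 0.0673).

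The effector kinase genes did not pass the test. *Chek1* (chr9:36708482-36727065, minus strand) was at 71 and 73.4 CPM in the nt-shRNA libraries, 72.3, 69.5 and 63.8 CPM with shRNA1, and 64.5, 66.2 and 66.1 CPM with shRNA2. The shRNA2 libraries lay below both controls by a log2 fold change of -0.14 ± 0.0677 (standard error, adjusted p = 0.0905), with a 95% interval of -0.28 to 0.0038, and shRNA1 gave -0.077 (adjusted p = 0.411). With offsets for GC content *Chek1* was called in both comparisons (-0.18, adjusted p = 0.0145 with shRNA1 and -0.28, adjusted p = 0.000296 with shRNA2). *Chek2* (chr5:110839979-110874145, plus strand) was at 54.1 and 57 CPM in the nt-shRNA libraries, 57.7, 54.6 and 50.3 CPM with shRNA1, and 51.3, 57.1 and 56.5 CPM with shRNA2. Its groups overlapped throughout, and the log2 fold changes were -0.038 ± 0.0755 (standard error, adjusted p = 0.74) and -0.016 ± 0.0757 (standard error, adjusted p = 0.869), with 95% intervals of -0.20 to 0.12 and -0.17 to 0.14.

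With shRNA2, *Mdc1* fell most of the 34 genes. MDC1 is the scaffold that binds phosphorylated H2AX beside a break and recruits the next factors. *Mdc1* (chr17:35841515-35859670, plus strand) was at 258 and 280.2 CPM in the nt-shRNA libraries, 226, 212 and 228 CPM with shRNA1, and 168, 169 and 191 CPM with shRNA2. The 3 groups were fully separated, with shRNA2 lowest. The log2 fold change was -0.28 ± 0.067 (standard error, adjusted p = 0.00404) with shRNA1 and -0.61 ± 0.067 (standard error, adjusted p = 3.38e-07) with shRNA2, or 17.4% and 34.5% lower, and the hairpins differed by -0.34 ± 0.061 (standard error, adjusted p = 0.000367). The shRNA1 call was lost without nt-shRNA replicate 2 (-0.21, adjusted p = 0.0866) and with library size alone (-0.16, adjusted p = 0.0749).

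The ubiquitin ligases that act after MDC1 were higher with shRNA2. *Rnf168* (chr16:32277459-32301434, plus strand), which ubiquitinates H2A at breaks, was at 37.8 and 45.6 CPM in the nt-shRNA libraries, 43.9, 45.6 and 40.1 CPM with shRNA1, and 53.2, 53.7 and 49.1 CPM with shRNA2. All shRNA2 libraries were above both controls, by 0.32 ± 0.0856 (standard error, adjusted p = 0.00384), whereas shRNA1 overlapped them at 0.048 (adjusted p = 0.707). The shRNA2 call was lost without nt-shRNA replicate 1 (0.19, adjusted p = 0.143), which was the lower control. *Rnf8*, the ligase that MDC1 recruits, was at 0.049 (adjusted p = 0.775) and 0.28 (adjusted p = 0.0396), on levels of 11.8 CPM in nt-shRNA, and its shRNA2 call was lost with DESeq2 (0.27, adjusted p = 0.0923), without either nt-shRNA library, without shRNA2 replicates 1 or 2 and without shRNA1 replicate 2 (adjusted p = 0.0536 to 0.184). Exons of *Rnf8* overlap another gene over 13.2% of their length.

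*Parp1*, the abundant enzyme that binds breaks and makes poly(ADP-ribose), was lower at -0.19 (adjusted p = 0.0179) with shRNA1 and -0.17 (adjusted p = 0.0202) with shRNA2. These calls were among the least firm. The shRNA1 call was lost without shRNA1 replicates 1 or 2 or either nt-shRNA library (adjusted p = 0.0519 to 0.141), the shRNA2 call without shRNA2 replicate 1 or either nt-shRNA library (adjusted p = 0.0527 to 0.122), and both were lost with GC content offsets (-0.13, adjusted p = 0.06 and -0.086, adjusted p = 0.158). *Trp53bp1*, which encodes 53BP1, the factor that protects ends from resection, was at -0.10 (adjusted p = 0.24) and -0.016 (adjusted p = 0.852), with 95% intervals of -0.24 to 0.032 and -0.15 to 0.12. In 15.0% of its exon length it overlaps *Tubgcp4*.

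Of the 5 resection and helicase genes, *Blm* was the one lower with shRNA2. BLM is a RecQ helicase that unwinds recombination intermediates. *Blm* (chr7:80454733-80535119, minus strand) was at 154 and 153 CPM in the nt-shRNA libraries, 146, 123 and 124 CPM with shRNA1, and 125, 126 and 139 CPM with shRNA2. All KD libraries were below both controls, at -0.23 ± 0.073 (standard error, adjusted p = 0.0228) with shRNA1 and -0.24 ± 0.0731 (standard error, adjusted p = 0.00953) with shRNA2. The shRNA1 call was lost without shRNA1 replicates 2 or 3 or either nt-shRNA library (adjusted p = 0.0632 to 0.121), and the shRNA2 call without nt-shRNA replicate 1 (-0.24, adjusted p = 0.0525).

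*Rbbp8* (chr18:11633276-11745221, plus strand), which encodes CtIP, the factor that starts end resection, was called higher with shRNA1. It was at 40.3 and 38.6 CPM in the nt-shRNA libraries, 51.7, 47.5 and 40.5 CPM with shRNA1, and 45.2, 42.8 and 45.4 CPM with shRNA2. Every KD library was above both controls, by 0.24 ± 0.0878 (standard error, adjusted p = 0.0464) with shRNA1 and 0.17 ± 0.0881 (standard error, adjusted p = 0.101) with shRNA2. The shRNA2 difference passed the threshold with the replicate block (0.22, adjusted p = 0.0343) and with library size alone (0.26, adjusted p = 0.0177). It also passed with only the groups compared (0.17, adjusted p = 0.0483) and without shRNA1 replicate 3 (0.17, adjusted p = 0.0389). The shRNA1 call was lost in the fits without shRNA1 replicates 1 or 2, shRNA2 replicate 1 or either nt-shRNA library (adjusted p = 0.0582 to 0.228) and with DESeq2 (0.23, adjusted p = 0.069), and the hairpins did not differ beyond the spread, at -0.063 (adjusted p = 0.563). *Rad50* and *Nbn* encode partners of MRE11 in the complex that senses and trims ends. *Rad50* was at 0.014 (adjusted p = 0.912) and -0.14 (adjusted p = 0.114). *Nbn* was at -0.088 (adjusted p = 0.464) and 0.11 (adjusted p = 0.3). *Wrn*, another RecQ helicase gene, was at 0.11 (adjusted p = 0.377) and -0.10 (adjusted p = 0.353). Its difference between the hairpins, -0.21 (adjusted p = 0.0504), missed the threshold but passed it in 12 of the 19 alternatives (adjusted p = 0.00931 to 0.2 over the 19).

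*Brca2* had the largest increase of the 34 genes with either hairpin. BRCA2 acts on resected DNA in homologous recombination. *Brca2* (ENSMUSG00000041147, chr5:150522630-150570329, plus strand) was at 91.4 and 104 CPM in the nt-shRNA libraries, 162, 168 and 138 CPM with shRNA1, and 213, 209 and 226 CPM with shRNA2. The 3 groups were fully separated, with shRNA1 between nt-shRNA and shRNA2. The log2 fold change was 0.67 ± 0.0794 (standard error, adjusted p = 4.72e-06) with shRNA1 and 1.14 ± 0.0803 (standard error, adjusted p = 1.38e-09) with shRNA2, that is 1.59-fold and 2.21-fold higher. The hairpins differed by 0.47 ± 0.0691 (standard error, adjusted p = 5.05e-05).

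The genes *Brca1*, *Bard1* and *Palb2*, whose products act with BRCA2, were not called higher with either hairpin. *Brca1* and *Bard1* encode the subunits of a ubiquitin ligase that promotes recombination. *Brca1* (chr11:101488764-101551955, minus strand) was at 154 and 174 CPM in the nt-shRNA libraries, 151, 144 and 154 CPM with shRNA1, and 132, 134 and 139.9 CPM with shRNA2. Its shRNA2 libraries were below both controls, at -0.28 ± 0.064 (standard error, adjusted p = 0.00118), a call lost without nt-shRNA replicate 2 (-0.19, adjusted p = 0.0633). With shRNA1 it was at -0.13 ± 0.064 (standard error, adjusted p = 0.131), and the shRNA1 libraries were all below the lower control. *Bard1* (chr1:71027498-71103146, minus strand) was at 65.4 and 64.1 CPM in the nt-shRNA libraries, 58.5, 62.2 and 59.2 CPM with shRNA1, and 50.2, 47 and 55.1 CPM with shRNA2. The log2 fold change was -0.11 ± 0.0725 (standard error, adjusted p = 0.26) with shRNA1 and -0.35 ± 0.073 (standard error, adjusted p = 0.000451) with shRNA2, and the hairpins differed by -0.24 ± 0.0666 (standard error, adjusted p = 0.00888). *Palb2*, the bridge between BRCA1 and BRCA2, was at 0.016 (adjusted p = 0.885) and -0.065 (adjusted p = 0.427), with 95% intervals of -0.12 to 0.16 and -0.21 to 0.076.

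The products of *Rad51c*, *Rad51d*, *Xrcc2* and *Xrcc3* form complexes that act in homologous recombination. *Rad51c* was lower at -0.31 (adjusted p = 0.012) and -0.33 (adjusted p = 0.00393), *Rad51d* was at -0.19 (adjusted p = 0.0823) and lower at -0.29 (adjusted p = 0.00676), and *Xrcc3* was lower at -0.29 (adjusted p = 0.0332) and -0.29 (adjusted p = 0.0165), each pair given for shRNA1 and then shRNA2. *Xrcc2* was the exception, at -0.05 (adjusted p = 0.739) and higher at 0.25 (adjusted p = 0.0366). Without nt-shRNA replicate 2 the calls of *Rad51c* (-0.23, adjusted p = 0.166 with shRNA1 and -0.26, adjusted p = 0.079 with shRNA2) and *Rad51d* (-0.21, adjusted p = 0.125) were lost. The *Xrcc3* call with shRNA1 was lost without shRNA1 replicates 1 or 2 or either nt-shRNA library (adjusted p = 0.0646 to 0.238), and with shRNA2 without shRNA2 replicate 1 or nt-shRNA replicate 1 (adjusted p = 0.0629 to 0.134). Both *Xrcc3* calls were also lost with GC content offsets (-0.17, adjusted p = 0.118 and -0.12, adjusted p = 0.221). The *Xrcc2* call was lost without shRNA2 replicates 1 or 2 or nt-shRNA replicate 1 (adjusted p = 0.0533 to 0.333), with DESeq2 (0.24, adjusted p = 0.0736), with no filter (0.23, adjusted p = 0.088) and with only the groups compared (0.25, adjusted p = 0.0536).

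**Figure D2:**
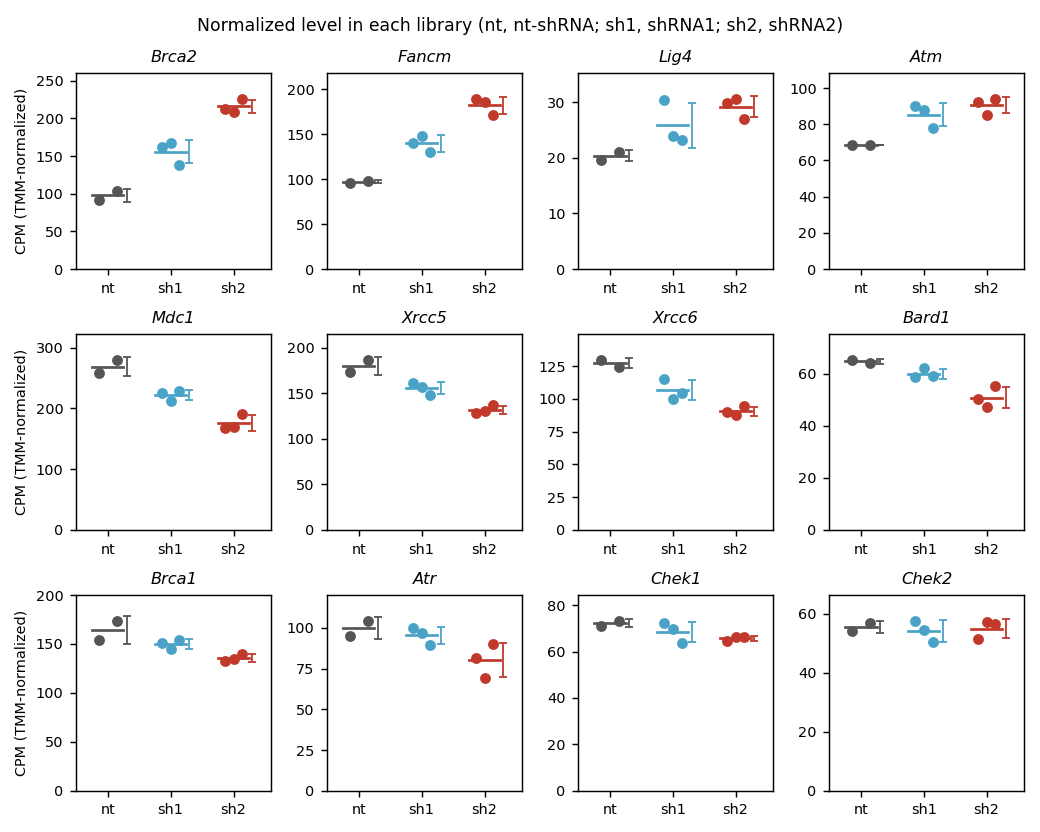
TMM-normalized CPM (y axis, from 0) of 12 of the 34 genes in each library, with nt-shRNA in grey (n = 2), shRNA1 in blue (n = 3) and shRNA2 in red (n = 3). Horizontal lines are group means and brackets are ± SD. The groups are fully separated for *Brca2*, *Fancm*, *Mdc1*, *Xrcc5*, *Xrcc6*, *Bard1* and, narrowly, *Brca1*, and overlap for *Chek2*.

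In the Fanconi anemia group, *Fancm* rose and the other members fell or did not pass. FANCM is the translocase that anchors the core complex on DNA. *Fancm* (ENSMUSG00000055884, chr12:65075603-65132058, plus strand) was at 95.8 and 98.5 CPM in the nt-shRNA libraries, 140.5, 148 and 130.3 CPM with shRNA1, and 189.5, 186 and 171 CPM with shRNA2. The 3 groups were fully separated in the same order as for *Brca2*. The log2 fold change was 0.52 ± 0.0683 (standard error, adjusted p = 1.45e-05) with shRNA1 and 0.91 ± 0.0688 (standard error, adjusted p = 3.21e-09) with shRNA2, or 1.44-fold and 1.88-fold higher, and the hairpins differed by 0.38 ± 0.0598 (standard error, adjusted p = 9.28e-05). Its exons overlap the genes *Gm47869* and *Gm47870* over 7.07% of their length.

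FANCI and FANCD2 form the clamp that is ubiquitinated at crosslinks. *Fanci* (chr7:79391929-79450264, plus strand) was at 78.4 and 89 CPM in the nt-shRNA libraries, 76.6, 74.1 and 70.4 CPM with shRNA1, and 70.1, 64 and 75.7 CPM with shRNA2. All KD libraries were below both controls, with a log2 fold change of -0.18 ± 0.0764 (standard error, adjusted p = 0.0741) with shRNA1 and -0.26 ± 0.0766 (standard error, adjusted p = 0.00751) with shRNA2, and the shRNA2 call was lost without nt-shRNA replicate 2 (-0.17, adjusted p = 0.166). Exons of *Fanci* overlap *Polg* over 16.0% of their length. *Fancd2* was at -0.11 (adjusted p = 0.236) with shRNA1 and lower at -0.20 (adjusted p = 0.0219) with shRNA2. The *Fancd2* call was lost without shRNA2 replicates 1 or 2 or nt-shRNA replicate 2 (adjusted p = 0.0694 to 0.173).

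*Fanca* and *Fancc* encode core complex subunits. *Fanca* was at -0.0019 (adjusted p = 0.988) with shRNA1 and lower at -0.19 (adjusted p = 0.0336) with shRNA2, and that call was lost without shRNA2 replicates 1 or 2 or either nt-shRNA library (adjusted p = 0.096 to 0.143) and with GC content offsets (-0.066, adjusted p = 0.443). *Fancc*, at 13.6 CPM in nt-shRNA, was lower at -0.30 (adjusted p = 0.0382) and -0.32 (adjusted p = 0.0164). Its shRNA1 call was lost in 14 of the 19 alternatives, among them DESeq2 (-0.30, adjusted p = 0.0732) and leaving out any of the shRNA1 or nt-shRNA libraries or shRNA2 replicate 1 (adjusted p = 0.058 to 0.223). Its shRNA2 call was lost without shRNA2 replicate 1 or nt-shRNA replicate 2 (adjusted p = 0.0645 to 0.124). Exons of *Fancc* and *Fanca* overlap other genes over 18.6% and 10.5% of their length.

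All 4 end joining genes were called with shRNA2, 3 lower and 1 higher, where 28.7% of all genes were lower and 27.2% higher. *Xrcc6* and *Xrcc5* encode Ku70 and Ku80, the ring that binds broken ends. *Xrcc6* (chr15:81987835-82040085, plus strand) was at 129.9 and 124 CPM in the nt-shRNA libraries, 115, 100 and 104 CPM with shRNA1, and 90.1, 87.5 and 94.2 CPM with shRNA2. *Xrcc5* (chr1:72307427-72394952, plus strand) was at 173 and 187 CPM in the nt-shRNA libraries, 161, 157 and 149 CPM with shRNA1, and 128, 131 and 137 CPM with shRNA2. For both Ku genes the 3 groups were fully separated, with shRNA2 lowest. The log2 fold change of *Xrcc6* was -0.26 ± 0.0663 (standard error, adjusted p = 0.00647) with shRNA1 and -0.49 ± 0.0665 (standard error, adjusted p = 4.86e-06) with shRNA2. That of *Xrcc5* was -0.21 ± 0.0619 (standard error, adjusted p = 0.014) and -0.45 ± 0.0619 (standard error, adjusted p = 5.76e-06). The hairpins differed by -0.23 (adjusted p = 0.00589) for *Xrcc6* and -0.24 (adjusted p = 0.00305) for *Xrcc5*. The shRNA1 calls were lost without nt-shRNA replicate 1 for *Xrcc6* (-0.22, adjusted p = 0.0912) and without nt-shRNA replicate 2 for *Xrcc5* (-0.15, adjusted p = 0.193). Exons of *Xrcc6* overlap *Desi1* over 7.69% of their length.

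*Prkdc*, the catalytic subunit of the DNA-dependent kinase that Ku recruits, was at 0.0028 (adjusted p = 0.983) with shRNA1 and lower at -0.29 (adjusted p = 0.00388) with shRNA2, and the hairpins differed by -0.29 (adjusted p = 0.00351). *Lig4*, the ligase that seals the ends, was higher, in the opposite direction to the Ku genes. It was at 19.6 and 21.1 CPM in the nt-shRNA libraries, 30.4, 23.8 and 23.2 CPM with shRNA1, and 29.9, 30.6 and 27 CPM with shRNA2. Every KD library was above both controls, with shRNA1 replicate 1 well above the other shRNA1 libraries, and the log2 fold change was 0.34 ± 0.108 (standard error, adjusted p = 0.023) and 0.52 ± 0.108 (standard error, adjusted p = 0.000473). The shRNA1 call of *Lig4* was lost without shRNA1 replicate 1 (0.21, adjusted p = 0.139) and without nt-shRNA replicate 1 (0.29, adjusted p = 0.172) or 2 (0.39, adjusted p = 0.0596).

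*Msh6* (chr17:87975062-87990892, plus strand), whose product takes part in recognizing mismatches, was the one mismatch repair gene of the list. It was at 678 and 691 CPM in the nt-shRNA libraries, 752, 706 and 696 CPM with shRNA1, and 776, 772 and 771 CPM with shRNA2. All KD libraries were above both controls, but the shift was small, at 0.069 ± 0.0589 (standard error, adjusted p = 0.396) with shRNA1 and 0.18 ± 0.0591 (standard error, adjusted p = 0.0164) with shRNA2, or 13% higher. With library size alone *Msh6* was called higher with shRNA1 (0.18, adjusted p = 0.0188), beside a median of 0.11 over all genes. The shRNA2 call was lost without nt-shRNA replicate 1 (0.16, adjusted p = 0.112) or 2 (0.19, adjusted p = 0.0636).

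The hairpins were compared with each other, which tests whether the response differed between them. Between shRNA2 and shRNA1, 5 of the 34 genes were higher with shRNA2 and 7 lower, against 35.6% of all genes called, 16.9% higher and 18.7% lower. None of the 34 was called beyond 1.5-fold, against 11.5% of all genes, with 4.22% called beyond 2-fold. The libraries did not overlap for 8 higher and 11 lower genes, against 23.6% and 24.1% of all genes. The higher genes were *Brca2*, *Fancm*, *Xrcc2*, *Atrip* and *Rnf168*. The lower genes were *Mdc1*, *Prkdc*, *Atr*, *Bard1*, *Xrcc5*, *Xrcc6* and *Fanca*. Their log2 differences were 0.47 for *Brca2*, 0.38 for *Fancm*, 0.30 for *Xrcc2*, 0.28 for *Atrip* and 0.27 for *Rnf168*. The lower genes ran from -0.34 for *Mdc1* to -0.18 for *Fanca*. The call was lost without shRNA2 replicate 2 for *Atr* (-0.15, adjusted p = 0.112), *Atrip* (0.21, adjusted p = 0.0673), *Fanca* (-0.13, adjusted p = 0.147) and *Xrcc2* (0.22, adjusted p = 0.0801), which left 3 higher genes. *Atr* was also lost without shRNA1 replicates 1 or 2, *Fanca* without shRNA1 replicates 1 or 3 or shRNA2 replicate 1, and *Rnf168* without shRNA1 replicate 3 (0.22, adjusted p = 0.0531). The calls of *Brca2*, *Fancm*, *Mdc1*, *Bard1*, *Xrcc5*, *Xrcc6* and *Prkdc* held in all 19 alternatives.

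For genes called with shRNA2 alone, the difference between the hairpins itself was often not called. It missed the threshold for *Topbp1* (-0.11 (adjusted p = 0.11)), *Brca1* (-0.15 (adjusted p = 0.0568)), *Rad51d* (-0.092 (adjusted p = 0.371)), *Fancd2* (-0.085 (adjusted p = 0.312)), *Fanci* (-0.075 (adjusted p = 0.429)), *Rnf8* (0.23 (adjusted p = 0.083)) and *Msh6* (0.11 (adjusted p = 0.123)). That of *Brca1* passed in 9 of the 19 alternatives (adjusted p = 0.0138 to 0.174 over the 19), among them DESeq2 and GC content offsets, and that of *Topbp1* with GC content offsets (-0.12, adjusted p = 0.0378). None of the 34 genes was called in opposite directions by the hairpins.

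**Figure D3:**
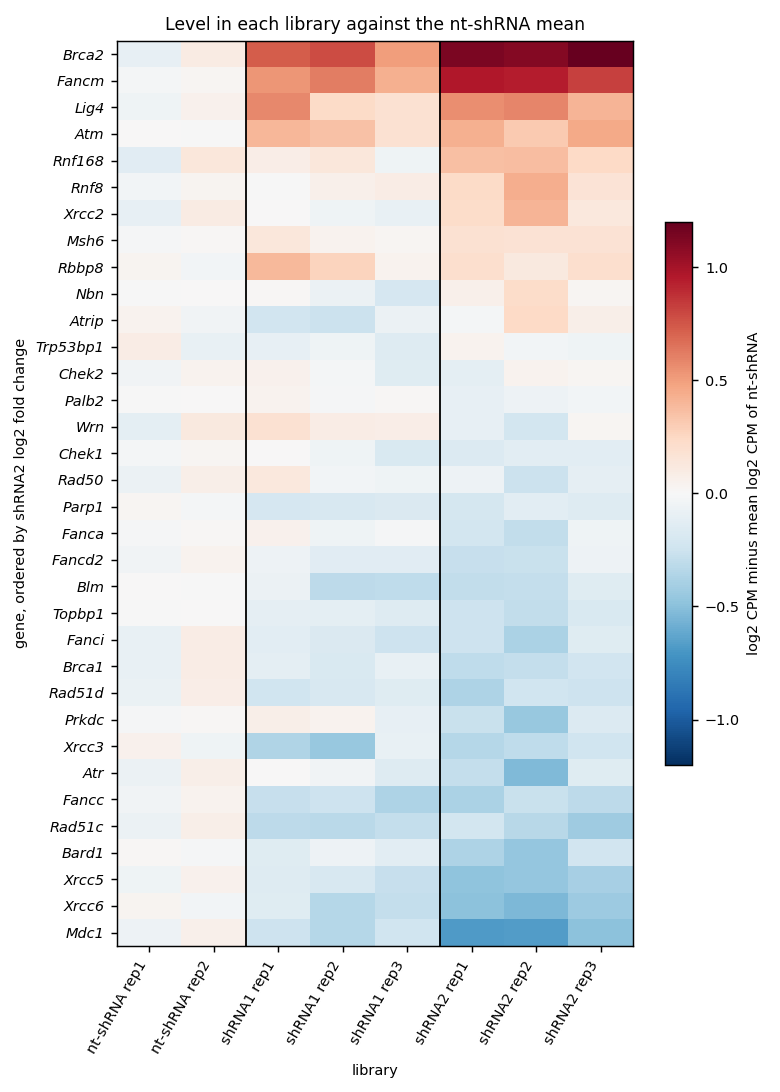
Log2 CPM of each of the 34 genes in each of the 8 libraries minus the mean log2 CPM of the nt-shRNA libraries, with genes ordered by their log2 fold change with shRNA2 and libraries in columns. Red is higher and blue lower. *Brca2* and *Fancm* at the top and *Mdc1*, *Xrcc6* and *Xrcc5* at the bottom shift in all 6 KD libraries, whereas the middle rows stay near 0.

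Many repair genes are known targets of E2F factors, which drive genes of the G1 to S transition, so the promoters were searched for the letters TTTCCCGC and TTTGGCGC on either strand. RefSeq (GRCm38.p6) gave a promoter, from 250 bases before to 50 after the start, for 26 of the 34 genes. The letters were found in 7 of the 26 (26.9%), against 1.80% of all 27025 genes with a promoter in that table. Those 27025 include genes that were not tested here, and they were not matched to the 26 for expression or GC content. Each site is shown in a window of 30 bases, read 5′ to 3′ on the strand of the gene, with the matched letters in capitals (GCGGGAAA is TTTCCCGC on the other strand). The windows of all 7 genes are shown.
*Brca2*, chr5:150522442-150522471, plus strand: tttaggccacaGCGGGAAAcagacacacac
*Msh6*, chr17:87975054-87975083, plus strand: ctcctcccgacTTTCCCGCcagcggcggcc
*Chek2*, chr5:110839820-110839849, plus strand: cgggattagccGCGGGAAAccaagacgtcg
*Bard1*, chr1:71103163-71103192, minus strand: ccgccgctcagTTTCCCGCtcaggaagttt
*Mdc1*, chr17:35841471-35841500, plus strand: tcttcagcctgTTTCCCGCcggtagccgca
*Rad51c*, chr11:87404941-87404970, minus strand: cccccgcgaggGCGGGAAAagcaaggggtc
*Xrcc6*, chr15:82016312-82016341, plus strand: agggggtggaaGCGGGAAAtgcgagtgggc

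The first capital letter lies at -168 in *Brca2*, 16 in *Msh6*, -152 in *Chek2*, -209 in *Bard1*, -16 in *Mdc1*, -5 in *Rad51c* and -46 in *Xrcc6*, with the first base of the RefSeq transcript counted as 1 and the base before it as -1. With shRNA2 27.2% of all genes were higher and 28.7% lower. Of these 7 genes, 2 were higher with shRNA2 (*Brca2* at 1.14 and *Msh6* at 0.18), 4 were lower (*Bard1* at -0.35, *Mdc1* at -0.61, *Rad51c* at -0.33 and *Xrcc6* at -0.49) and *Chek2* was not called, at -0.016. The *Msh6* call was lost without nt-shRNA replicate 1 (0.16) or 2 (0.19). Of all 34 genes, 8 were higher and 17 lower with shRNA2. Whether E2F factors had a part in these changes was not tested. The cell cycle homology letters TTTGAA or TTCGAA were in 3 of the 26 promoters (11.5%), those of *Atr*, *Bard1* and *Rnf8*, against 21.7% of all genes. These are matches of letters in one window, and binding was not measured.

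Some of the genes share a start region with a protein-coding gene on the other strand, whose first base lies within 1 kb. There were 11 such genes, and their partners, the nearest for each, show how far the neighbouring transcript moved. Noncoding neighbours were not considered. Of the 11 partners, 2 were lower and none higher with shRNA1, against 17.1% and 13.8% of all genes. With shRNA2 3 were lower and 1 higher, against 28.7% and 27.2% of all genes. The 6 described were chosen after their values were seen. *Npat*, which starts 307 bases from *Atm*, was at 0.059 (adjusted p = 0.564) with shRNA1 and 0.10 (adjusted p = 0.256) with shRNA2, beside 0.31 and 0.40 for *Atm*. *Mcm4*, a replicative helicase gene that starts 466 bases from *Prkdc*, was at 0.079 (adjusted p = 0.311) and 0.17 (adjusted p = 0.0168), beside 0.0028 and -0.29 for *Prkdc*. *Abhd13*, 21 bases from *Lig4*, was at 0.06 (adjusted p = 0.546) and 0.14 (adjusted p = 0.0891), beside 0.34 and 0.52. *Zfyve21*, 297 bases from *Xrcc3*, was lower at -0.53 (adjusted p = 4.17e-05) and -0.64 (adjusted p = 1.03e-06), beside -0.29 and -0.29 for *Xrcc3*. *Hscb*, 202 bases from *Chek2*, was lower at -0.38 (adjusted p = 0.00238) and -0.49 (adjusted p = 9.53e-05), beside -0.038 and -0.016 for *Chek2*. *Nbr1*, 194 bases from *Brca1*, was at -0.088 (adjusted p = 0.275) and lower at -0.18 (adjusted p = 0.016), beside -0.13 and -0.28 for *Brca1*, and its call was lost without shRNA2 replicate 2 or either nt-shRNA library (adjusted p = 0.0532 to 0.102). The *Hscb* call with shRNA1 was lost without nt-shRNA replicate 2 (-0.32, adjusted p = 0.0533), and the *Mcm4* call with shRNA2 without nt-shRNA replicate 1 (0.14, adjusted p = 0.153) or 2 (0.19, adjusted p = 0.052). The *Mcm4* call was also lost with GC content offsets (0.11, adjusted p = 0.0693) and with no filter (0.15, adjusted p = 0.0753). That of *Nbr1* with shRNA2 was also lost with library size alone (-0.088, adjusted p = 0.219). The counting used no strand, so reads in any shared sequence cannot be told apart.

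The other genes of these pathways were taken from lists written by role, which hold 124 further genes of damage signaling and repair, all tested. With shRNA1 14 of the 124 were higher and 24 lower (30.6% called), and with shRNA2 51 were higher and 28 lower (63.7% called), with medians of 0.012 and 0.077. Over all genes tested, 30.9% were called with shRNA1 (13.8% higher, 17.1% lower) and 55.9% with shRNA2 (27.2% higher, 28.7% lower). Between the hairpins 31 were higher and 19 lower with shRNA2 (40.3% called), against 35.6% of all genes.

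Other homologous recombination genes had 14 of 26 higher and 5 lower with shRNA2. *Gen1*, a resolvase of Holliday junctions, was highest at 1.62 (adjusted p = 2.76e-08), and *Dmc1*, the meiotic recombinase gene, lowest at -1.05 (adjusted p = 2.30e-06). Other damage signaling genes had 12 of 26 higher and 6 lower, led by *Rnf169* at 1.12 (adjusted p = 2.27e-08) and by *Rad9b*, a subunit of a checkpoint clamp, at -1.13 (adjusted p = 4.00e-06). Other Fanconi anemia genes had 9 of 19 higher and 5 lower, with *Fancf* at 0.89 (adjusted p = 0.000132) and *Ercc4*, a nuclease subunit gene, at 0.87 (adjusted p = 2.80e-08). Other end joining genes had 1 of 10 higher, *Polm* at 0.24 (adjusted p = 0.0377), and 1 lower, *Tdp2* at -0.38 (adjusted p = 5.60e-05). The *Polm* call was lost without shRNA2 replicates 1 or 3, shRNA1 replicate 2 or either nt-shRNA library (adjusted p = 0.0535 to 0.234). DESeq2 (0.23, adjusted p = 0.0933), no filter (0.21, adjusted p = 0.167) and the replicate block (0.23, adjusted p = 0.0531) also ended the *Polm* call. Other mismatch repair genes had 3 of 6 higher and 1 lower, with *Mlh3* at 0.49 (adjusted p = 3.21e-05) and *Msh3* at 0.33 (adjusted p = 0.00208).

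Excision repair genes remove damaged bases or bulky lesions. Base excision repair had 4 of 18 higher and 7 lower with shRNA2, and the glycosylase genes *Nthl1* and *Neil2* were lowest, at -1.02 (adjusted p = 4.60e-08) and -0.98 (adjusted p = 1.57e-07). In the shRNA1 comparison 1 of the 18 was higher and 7 were lower. Nucleotide excision repair had 8 of 19 higher and 3 lower with shRNA2, with *Ddb2*, a damage recognition gene, at -0.73 (adjusted p = 1.20e-05) and *Ercc8* at 0.42 (adjusted p = 0.000507). In the shRNA1 comparison none of the 19 was higher and 1 was lower, *Ddb2* at -0.31 (adjusted p = 0.0327), a call lost without shRNA1 replicates 1 or 2 or either nt-shRNA library (adjusted p = 0.0836 to 0.152).

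**Figure D4:**
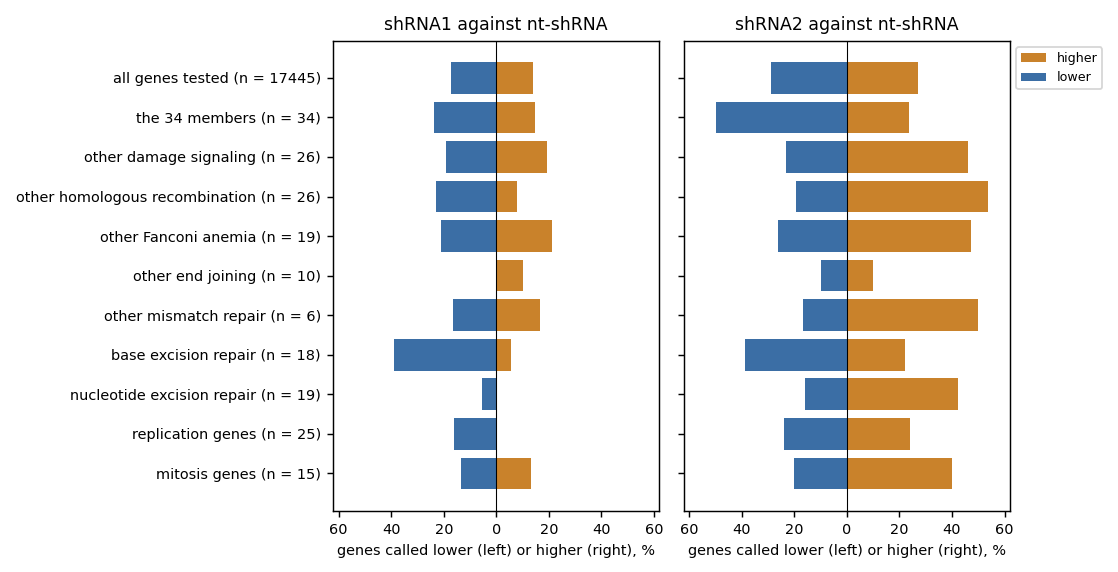
Percent of the genes of each list called lower (blue, left of 0) or higher (orange, right of 0) against nt-shRNA, for shRNA1 and shRNA2, with all genes tested in the top row and the number tested after each name. With shRNA2 the 34 genes have 8 higher and 17 lower, whereas the other homologous recombination genes have 14 higher and 5 lower of 26.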

How the data were processed

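RNA-seq was performed on 8 mESC libraries (poly(A) selection, paired-end reads). Reads were aligned by the authors with STAR to mm10 (GRCm38), and the deposited values are raw counts of fragments per gene, made with featureCounts 1.6.2 on the exons of GENCODE M24 without normalization. Strand was ignored, and fragments that aligned more than once or fell in several genes were not counted, which makes overlapping, antisense and near-identical genes uncertain. The deposited gene length served only as a covariate and to scale levels. Names came from GENCODE M21 (55144 identifiers matched), and samples were mapped by column names that match their titles.

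Counts were tested in R 4.3.3 with edgeR 4.0.16 (filterByExpr with a minimum count of 10, TMM, glmQLFit and glmQLFTest over all 8 libraries, 1 coefficient per group), with Benjamini-Hochberg adjustment over 17445 genes and calls at an adjusted p-value under 0.05. Standard errors were taken from the F statistic, and 95% intervals from its residual degrees of freedom. Values per library are TMM-normalized CPM. With 3 libraries against 2, an exact permutation test of 1 gene cannot go below 0.1 one-sided, so the tests rest on a spread estimated across genes (biological coefficient of variation 0.0638). Libraries of a group differed by more than sampling noise. The chi-square per gene was 3.12 to 8.37 for pairs within the KD groups and 12.17 for the nt-shRNA pair, which is also the deepest. The code was tested on simulated data.

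Alternatives were DESeq2 1.42.0, other scalings and filters, fewer groups in the fit, the replicate number as a block, gene length and GC content offsets and each library left out. Members with exons that overlap another gene over at most 5% of their length were added as an alternative after the data were seen. The members, the other gene lists and the motifs were chosen with earlier results of these data known. Every member is named. Values per library are given for the top pair of each role group by adjusted p-value in the shRNA2 comparison, the top gene in the shRNA1 comparison, *Atm*, *Atr*, *Chek1*, *Chek2* and *Brca1*. *Lig4* was added after its values were seen. From each other pathway list the called pair with the largest change under shRNA2 is named, and the neighbours described were chosen after their values were seen. Splicing events were not analysed here.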

Additional observations from a re-analysis of the deposited data

How the results depend on the processing

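No called result changed direction in the 19 alternatives or in the one added later, but the members' median with shRNA1 changed sign with library size alone. That scaling moved the median of all genes with shRNA1 from -0.0069 to 0.11 and with shRNA2 from 0.0040 to 0.093. With shRNA1 it called 4101 genes higher and 1713 lower (70.5% higher instead of 44.7%), 0 lower members and a members' median of 0.031, and with shRNA2 9 lower members, a median of -0.064 and 58.9% of all calls higher instead of 48.7%. GC content offsets gave 3 higher members with shRNA1 (2658 of all genes, against 2407), and these offsets with the replicate block gave 13 lower members (3271 of all genes, against 2981). *Eftud2* passed the threshold with shRNA1 under DESeq2 (-0.18, adjusted p = 0.0487), with no filter (-0.18, adjusted p = 0.03), with only the groups compared (-0.16, adjusted p = 0.0491), with length offsets (-0.22, adjusted p = 0.0162) and with these and the replicate block (-0.25, adjusted p = 0.00564). It was closer to no change, and not called, with library size alone (-0.065, adjusted p = 0.498) and with GC content offsets (-0.11, adjusted p = 0.211). Of the 24 members whose exons overlap another gene over at most 5% of their length, an alternative chosen after seeing the data, 3 were higher and 4 lower with shRNA2 than with shRNA1, a smaller count because fewer genes enter it. Otherwise the cause of these changes was not tested.

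Leaving out 1 library at a time gave 1248 to 2649 higher and 1700 to 3254 lower genes with shRNA1, lowest without nt-shRNA replicate 1 (1531 higher without nt-shRNA replicate 2). Members higher and lower were 3 to 5 and 1 to 9 with shRNA1, 4 to 9 and 8 to 17 with shRNA2, and 3 to 7 higher in shRNA2 against shRNA1. *Eftud2* was at -0.20 to -0.16 with shRNA1, past the threshold without shRNA2 replicate 2 (adjusted p = 0.0415) or 3 (adjusted p = 0.0215), and at -0.19 to -0.068 in shRNA2 against shRNA1.

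Whether the replicate numbers in the labels pair the libraries was not settled, and the main fit used no pairs. Deviations of same-numbered shRNA1 and shRNA2 libraries correlated by 0.022 to 0.074 across genes. Those of differently numbered libraries of these groups correlated by -0.083 to 0.028. Same-numbered correlations with nt-shRNA were -0.026 to 0.011. The deviations of the 2 nt-shRNA libraries from their own mean mirror each other, so these correlations say little about pairs. With the replicate number as a block, 5 members were higher and 8 lower with shRNA1, 9 and 17 with shRNA2, and 6 and 9 in shRNA2 against shRNA1, over 2694 higher and 3324 lower genes of all tested with shRNA1, 4898 and 5136 with shRNA2 and 3116 and 3402 between the hairpins. *Eftud2* was then at -0.21 with shRNA1 (adjusted p = 0.0206). In the shRNA1 comparison the block brought *Rad51d* past the threshold (-0.21, adjusted p = 0.0469) and ended the call of *Fancc* (-0.28, adjusted p = 0.0552). With the block and offsets, *Atr* was lower with shRNA1 (length, -0.22, adjusted p = 0.0361; GC content, -0.22, adjusted p = 0.0177).

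Depth limits the less abundant members most, since *Fancc* and *Rnf8* had the fewest counts, and the 2 nt-shRNA libraries limit every comparison with them. Genes of 6865 bases of exon or more had median log2 fold changes of 0.052 with shRNA1 and 0.056 with shRNA2, and those of 1811 bases or less -0.075 and -0.023.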

Other observations

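Genes that copy DNA and genes that run mitosis were followed beside the repair genes, as lists of 25 and 15 genes written by hand. Of all genes tested, 13.8% were higher and 17.1% lower with shRNA1, and 27.2% and 28.7% with shRNA2. Of the replication genes, 4 were lower and none higher with shRNA1, and 6 were higher and 6 lower with shRNA2, with median log2 fold changes of -0.073 and 0.011. The summed level of these 25 genes was 4613 and 4763 CPM in the nt-shRNA libraries, 4243 to 4434 CPM with shRNA1 and 4486 to 4782 CPM with shRNA2, so the shRNA2 libraries overlapped the controls. Of the mitosis genes, 2 were higher and 2 lower with shRNA1, and 6 were higher and 3 lower with shRNA2. Their sum was 3476 and 3643 CPM in the nt-shRNA libraries, 3388 to 3583 CPM with shRNA1 and 3580 to 3847 CPM with shRNA2. The part of the cell cycle in the repair gene results was not tested.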
